A study of Mus musculus with 8 samples.

Results

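Transcripts of 9 genes that mark or specify dendritic cells were followed in RNA from cells sorted as CD8 T cells out of B16 tumours. The genes were Flt3, Irf8, Batf3, Irf4, Zbtb46, Clec9a, Cd209a, Siglech and Fscn1, chosen by symbol for their known roles, and they are 9 of the 55335 genes in the deposited tables. One library came from Cd36 knockout mice (CD36_KO) and one from wild-type mice (WT), both on the C57BL/6 background and given B16 mouse melanoma cells intravenously, with tumours collected after 14 days. Cd36 encodes a scavenger receptor for long-chain fatty acids and oxidised lipids. The titles of the 8 samples name 4 sequencing lanes of 1 library per genotype, so lanes were summed and no difference between genotypes has a replicate check. The labels state neither age, sex and number of animals per library nor the kind of Cd36 allele.

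Dendritic cells take up antigen, carry it to lymph nodes and present it to T cells. Their precursors depend on the receptor FLT3 and its ligand, and transcription factors then divide them into branches. IRF8 and BATF3 specify conventional dendritic cells type 1 (cDC1), which cross-present antigen of dead tumour cells to CD8 T cells. IRF4 acts in conventional dendritic cells type 2 (cDC2), and plasmacytoid dendritic cells (pDC) are known as producers of type I interferon. On maturation, dendritic cells switch on the actin-bundling protein fascin and the lymph node homing receptor CCR7.

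The libraries held 10363391 estimated counts for CD36_KO and 10071960 for WT, at 2569962 to 2611740 per CD36_KO lane and 2497048 to 2538468 per WT lane. Cd36 itself had 358 counts in the CD36_KO library and 1194 in the WT library, in the direction of the labels. Neither library held T cell RNA alone. Cd8a stood at 59.0 TPM (a transcript abundance scaled for length and library total) in CD36_KO and 10.6 TPM in WT, against 1520 and 1316 TPM of Lyz2, the lysozyme gene of macrophages, and 104 and 324 TPM of Dct, a pigment enzyme of melanoma cells. In such a mixture, fewer dendritic cells and less RNA per dendritic cell cannot be told apart.

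Most dendritic cell identity genes differed by less than 2-fold between the libraries, which does not show equal levels. By counting error Cd209a in CD36_KO, for instance, lay anywhere from 57.4% to 118% of WT. A gene counted as measured at a mean of at least 5 CPM, the count relative to the library total after TMM scaling, and 8 of the 9 genes were measured; Batf3 was not. A gene was called when it differed at least 2-fold and the 95% counting interval of its ratio excluded no difference. One measured gene, Fscn1, was called lower in CD36_KO, where 10.8% of all 12177 measured genes were called lower. None was called higher, against 6.5% of all measured genes, and 17.3% of all were called in either direction. With log2(TPM + 1) and the same fold, Fscn1 was again the 1 gene called lower, where 2.7% of all measured genes were lower and 12.3% higher. The median log2 ratio of the 8 genes, CD36_KO over WT, was -0.14, beside -0.13 for all measured genes. The interval excluded 0 for 2 of the 8 genes, Fscn1 and Flt3, both lower in CD36_KO. Among all measured genes it did so for 65.6%, with 40.7% lower and 24.9% higher. These intervals cover counting error only, since each genotype has 1 library. No molecular identifiers mark single molecules among the reads, so copies of the same molecule could make the intervals too narrow.

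**Figure D1:**
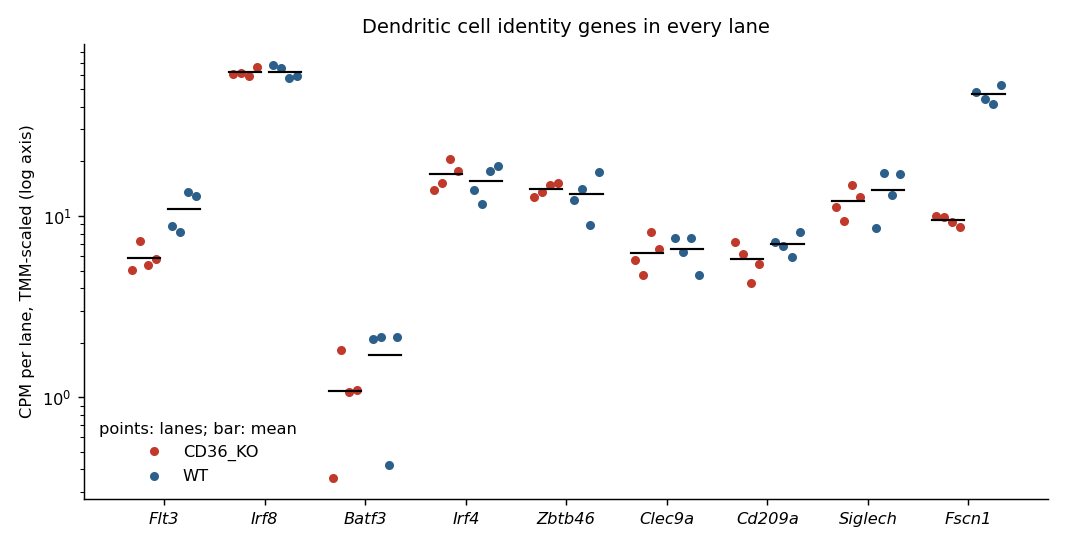
Abundance of the 9 genes in each sequencing lane, as TMM-scaled CPM on a log axis, with CD36_KO lanes in red to the left of WT lanes in blue and a black bar at the mean of the 4 lanes. The lanes of the genotypes lie apart for Fscn1 and Flt3 and overlap for the other 7 genes.

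Flt3 (ENSMUSG00000042817.15, GRCm38 chr5:147330741-147400489, minus strand) encodes the receptor tyrosine kinase for FLT3 ligand. Its lanes held 14.0, 20.1, 15.1 and 16 counts in CD36_KO and 21.0, 19.1, 32.0 and 30.1 counts in WT. After scaling, every CD36_KO lane (5.01 to 7.30 CPM) lay below every WT lane (8.17 to 13.5 CPM), as was so for 33.3% of all measured genes, while 19.6% had every CD36_KO lane above and 52.9% had no overlap in either direction. The log2 ratio was -0.89 (interval -1.36 to -0.43), short of 2-fold. Set against the all-gene median it was -0.75, and with TPM + 1 it was -0.19.

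The genes around this receptor differed in direction. Flt3l, which encodes its ligand, had 174 counts in CD36_KO and 52 in WT (log2 ratio 1.5, interval 1.05 to 1.98). Csf1, the ligand of the macrophage receptor CSF1R, had 128 and 249 counts in CD36_KO and WT (-1.20), while Csf1r itself had 2456 and 2143 (-0.04). Csf2, which encodes GM-CSF, had 0 counts in either library. Of the 12 measured genes of the growth factor list 2 were higher, Flt3l and Ikzf1 (1.05), 1 was lower, Csf1, and 9 lay between, with a median of -0.21. Of all measured genes 6.5% were called higher and 10.8% lower. Ikzf1 encodes a transcription factor active in all lymphocytes. T cells are known to express Flt3l, and the T cell list, given further on, had a median of 1.77. The part of T cell RNA in the Flt3l value was not tested.

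Irf8 (ENSMUSG00000041515.10, chr8:120736358-120756694, plus strand) was the most abundant of the 9 genes. Its lanes held 170, 170, 166 and 182 counts in CD36_KO and 162, 152, 136 and 138 in WT. On the scaled CPM these lanes overlapped, at 59.4 to 66.1 CPM in CD36_KO and 57.5 to 68.3 CPM in WT. The log2 ratio was -0.01, and with 688 and 588 counts its interval of -0.17 to 0.15 was the narrowest of the 9. The CD36_KO level was thus between 88.7% and 111% of the WT level by counting error, given TMM scaling. This is the level in the whole mixture, and the part of cells other than dendritic cells in the Irf8 value was not tested. With TPM + 1 the log2 ratio of Irf8 was 0.39, where the median of all measured genes was 0.37. Irf8 lies inside the annotated span of Gm20388 on the same strand (268 counts in CD36_KO and 253 in WT), but their transcripts share no 31-base word.

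Batf3 (ENSMUSG00000026630.9, chr1:191097847-191108945, plus strand), the AP-1 factor that acts with IRF8 in cDC1, had 12 counts in CD36_KO and 16 in WT. No lane held more than 5 counts. The log2 ratio of -0.65 had an interval of -1.86 to 0.52, which allows a CD36_KO level of 27.5% to 143% of WT, so no difference was detectable at this depth. Its relative Batf, active in lymphocytes, had 89 and 62 counts in CD36_KO and WT (0.28), and the JUN partner genes Junb (-0.10) and Jund (0.03) lay near 0. Jun stood at -0.66, and none of the 4 measured genes of the list passed the 2-fold rule.

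Irf4 (ENSMUSG00000021356.10, chr13:30749226-30766976, plus strand) acts in cDC2, in plasma cells and in activated T cells. Its lanes held 39, 42, 58 and 49 counts in CD36_KO and 33, 27, 42 and 44 in WT, and they overlapped after scaling. The log2 ratio was 0.13 (interval -0.19 to 0.45). Across the IRF family, 8 of 9 genes were measured and none passed the 2-fold rule, at a median of 0.22 and a range of -0.03 (Irf3) to 0.92 (Irf1). Irf1, which is induced by interferon gamma, had 802 counts in CD36_KO and 360 in WT.

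Zbtb46 (ENSMUSG00000027583.13, chr2:181387762-181459426, minus strand) encodes a zinc finger factor that marks conventional dendritic cells among immune cells and is also present in endothelium. Its lanes held 35.4, 37.3, 41.4 and 42.0 counts in CD36_KO and 29, 33, 21 and 41 in WT. The WT lanes, at 8.87 to 17.5 CPM, enclosed all CD36_KO lanes at 12.7 to 15.3 CPM. The log2 ratio was 0.09 (-0.26 to 0.44). Endothelial genes had 0 of 6 measured members called in either direction, but all 6 stood above the all-gene median, at a list median of 0.48. The endothelial list had a summed level of 62.2 to 70.0 TPM over CD36_KO lanes and 32.7 to 37.8 TPM over WT lanes. Its part in the Zbtb46 value was not tested.

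Clec9a (ENSMUSG00000046080.17, chr6:129408862-129424763, plus strand) encodes DNGR-1, a receptor of cDC1 for actin filaments bared by dead cells. Its lanes held 16, 13, 22.7 and 18 counts in CD36_KO and 18, 14.7, 18 and 11 in WT. These overlapped, at a log2 ratio of -0.06 (-0.58 to 0.45). The start of Clec9a overlaps the end of its neighbour Clec1b on the same strand, and 4.63% of the 31-base words in Clec9a transcripts also occur in Clec1b, so a few reads may have been divided between them. Clec1b, a platelet receptor gene, had 71 counts in CD36_KO and 31 in WT.

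Other lectins of the Clec9a cluster were not level. Clec1a had 277 counts in CD36_KO and 103 in WT (log2 ratio 1.19) and was the 1 called gene of 6 measured, and Clec2d (0.81) and Clec7a, the beta-glucan receptor dectin-1 (0.44), lay between. All 6 stood above the median of all measured genes, from -0.10 (Olr1) upward, with a list median of 0.40.

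Cd209a (ENSMUSG00000031494.7, chr8:3743397-3748984, minus strand) encodes a DC-SIGN related lectin of cDC2 and monocyte-derived dendritic cells. Its lanes held 20, 17, 12 and 15 counts in CD36_KO and 17, 16, 14 and 19 in WT. The lanes overlapped, at a log2 ratio of -0.28 (-0.80 to 0.24). Its relative Cd209c was similar in level and ratio, with 67 and 74 counts in CD36_KO and WT (-0.38), although Cd209a shares no 31-base word with any other gene. The other 5 genes of the family held at most 8 counts in a library.

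Siglech (ENSMUSG00000051504.18, chr7:55768178-55778925, plus strand) encodes a sialic acid binding lectin of mouse pDC. Its lanes held 31.4, 25.7, 41.3 and 35.1 counts in CD36_KO and 20.3, 40.2, 31 and 39.7 in WT. The lanes overlapped, at a log2 ratio of -0.22 (-0.58 to 0.14). Of the 7 measured Siglec genes none passed the 2-fold rule, and they ran from -0.57 for Siglec1, the macrophage gene sialoadhesin, to 0.88 for Siglecg and 0.81 for Cd22, both receptors of B cells. Cd22 had 361 counts in CD36_KO and 174 in WT.

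Fscn1 (ENSMUSG00000029581.14, chr5:142960343-142973185, plus strand) was the exception. Its lanes held 28, 27, 26 and 24 counts in CD36_KO and 115, 103, 98 and 124 counts in WT. The highest CD36_KO lane, at 10.0 CPM, was below the lowest WT lane, at 41.4 CPM. The log2 ratio of -2.31 (-2.63 to -2.0) put the CD36_KO library at 20.2% of the WT level, given TMM scaling. An added 1 understates the change of low genes, and TPM + 1 gave Fscn1 a log2 ratio of -1.48. With TPM + 0.1 it was -1.65, so most of the gap from -2.31 remained with the smaller addition. The median of all measured genes also differed by scale, at -0.13 with TMM, 0.37 with TPM + 1 and 0.44 with TPM + 0.1. The log2 ratio of Fscn1 thus moved with the scale in the same direction as that of all measured genes. Set against the all-gene median, the Fscn1 ratio was -2.17 with TMM. The cause of the gap was not tested beyond this common shift. The TPM levels of Fscn1 were 4.52 ± 0.80 TPM in CD36_KO and 14.4 ± 3.40 TPM in WT (SD over 4 lanes of 1 library). The other fascin genes, Fscn2 and Fscn3, held at most 7 counts in a library. Flt3 and Fscn1 lie on chromosome 5, as does Cd36, at 129.5 and 125.2 Mb from it. Linkage of these genes to the Cd36 allele was not tested.

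Fascin is also known from melanoma cells and fibroblasts, and most marker transcripts of these were lower too. All 10 melanoma genes were called lower, at a median of -2.26 and from -2.62 (Sox10) to -1.65 (Gpnmb). Their summed level was 427 to 437 TPM over CD36_KO lanes and 1207 to 1304 TPM over WT lanes. Of 7 measured fibroblast genes 5 were lower and 0 higher (median -1.32), led by Col1a1 (-2.32), while Acta2 (-0.36) and Pdgfrb (0.75, interval 0.44 to 1.07) lay between. The fibroblast list had a summed level of 45.9 to 55.4 TPM in CD36_KO and 122 to 138 TPM in WT. None of these markers was at 0 counts. Their part in the Fscn1 value was not tested.

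**Figure D2:**
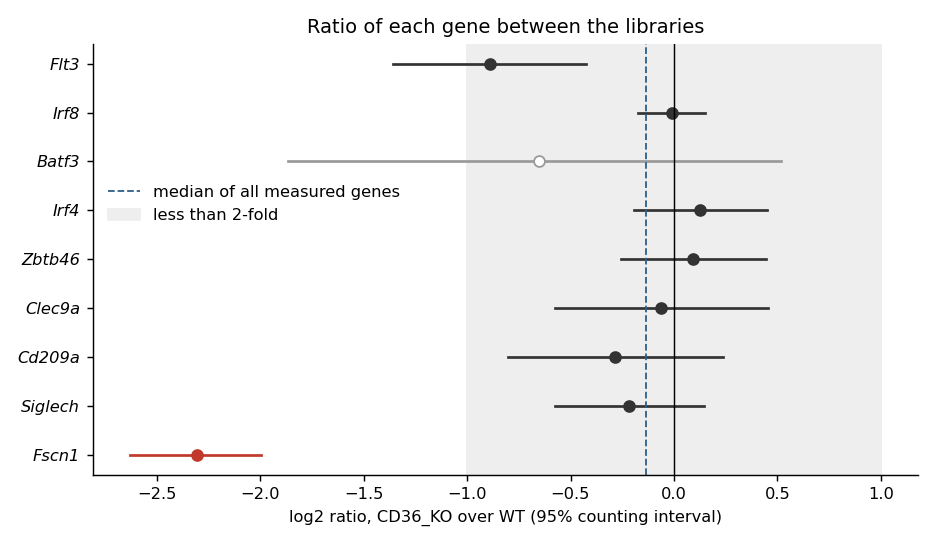
Log2 ratio of CD36_KO over WT for each of the 9 genes with its 95% counting interval; the grey band covers differences below 2-fold, the dashed line is the median of all measured genes (-0.13), and the open symbol marks Batf3, which was below 5 CPM. Fscn1 at -2.31 lies outside the band, and Flt3 at -0.89 is the other measured gene whose interval excludes 0.

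The promoters of Fscn1, the gene called lower, and Irf8, the most abundant and the nearest to 0, are shown for contrast. All 9 genes matched a RefSeq start on GRCm38.p6. Each line gives the 180 bases upstream of the annotated gene start on the plus strand, with capitals for the TATA box letters TATAAA and, in Fscn1, the cyclic AMP response element TGACGTCA.
Fscn1 chr5:142960163-142960342: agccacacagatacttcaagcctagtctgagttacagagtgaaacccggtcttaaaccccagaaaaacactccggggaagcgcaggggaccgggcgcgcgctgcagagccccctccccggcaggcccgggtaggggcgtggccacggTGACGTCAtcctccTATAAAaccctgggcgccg
Irf8 chr8:120736178-120736357: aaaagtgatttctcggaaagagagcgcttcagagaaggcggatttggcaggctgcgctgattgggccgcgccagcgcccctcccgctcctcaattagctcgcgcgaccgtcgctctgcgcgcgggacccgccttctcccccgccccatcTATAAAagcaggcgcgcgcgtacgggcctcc
Both promoters held TATAAA, as did RefSeq windows of Irf4, Clec9a and Cd209a on either strand, against 13.6% of all 32851 windows of 300 bases. TGACGTCA, a motif chosen after these letters were seen, occurred in the window of Fscn1 alone among the 9 genes and in 1.79% of all windows. The interferon-stimulated element, GAAA, any 2 bases and GAAA, was in none of the 10 windows of these genes and in 3.44% of all windows. The composite ETS and IRF element, GGAA, any 2 bases and GAAA, was in the Cd209a window and in 2.72% of all windows. These are matches of letters, searched on both strands with overlaps allowed, not binding sites.

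Levels between genes were compared in TPM, which is scaled for transcript length. In the CD36_KO library Irf8 stood at 19.7 ± 1.42 TPM, and its lowest lane exceeded the highest lane of the next gene. Siglech (4.59 ± 0.80), Fscn1, Irf4 (3.52 ± 1.67), Cd209a (3.34 ± 0.53), Zbtb46 (2.62 ± 0.63), Clec9a (1.86 ± 0.66), Batf3 (1.55 ± 1.17) and Flt3 (1.12 ± 0.18) followed in mean TPM, each with lanes that overlapped those of its neighbour in the order (SD over 4 lanes). In the WT library Irf8 (14.8 ± 1.59 TPM) and Fscn1 overlapped at the top, both above every lane of the remaining genes. Siglech (3.74 ± 0.88), Cd209a (2.96 ± 0.90), Irf4 (2.44 ± 0.73), Clec9a (2.16 ± 1.00), Zbtb46 (2.03 ± 0.72), Batf3 (1.52 ± 0.81) and Flt3 (1.42 ± 0.37) followed, again with overlapping neighbours. Fscn1 was thus number 3 of 9 in the CD36_KO order and number 2 in the WT order. The 9 genes summed to 41.0 to 44.3 TPM over CD36_KO lanes and 36 to 49.1 TPM over WT lanes.

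Most of the counts came from transcripts annotated as protein coding. Their share was 82.6% in CD36_KO and 81.6% in WT for Irf8, and 82.7% and 81.2% for Flt3. For Fscn1 it was 97.9% and 92.1%, and for Siglech 69.0% and 74.7%. In Siglech the rest came from transcripts marked for nonsense-mediated decay. Counted over coding transcripts alone, Fscn1 had a log2 ratio of -2.06 (-2.38 to -1.74) and Irf8 one of 0.16 (-0.02 to 0.34). Batf3, with 4.65 coding counts in CD36_KO and 11.6 in WT, was too low for its share to be read.

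Within Irf4 and Siglech the estimated transcripts differed between libraries more than the gene totals did. Irf4-201 and Irf4-202 differ by 3 coding bases at the start of exon 5, chr13:30753445-30753447. The lines show exon 4 joined to exon 5, with the bases present in Irf4-201 alone in capitals (GENCODE M21, plus strand).
Irf4-201: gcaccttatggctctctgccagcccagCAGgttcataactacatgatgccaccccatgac
Irf4-202: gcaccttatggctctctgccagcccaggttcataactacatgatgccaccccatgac
Irf4-201 was estimated at 39.0, 20.9, 57.0 and 15.5 counts in the CD36_KO lanes and at 11.0, 8.9, 0 and 15.0 in the WT lanes. Irf4-202 was estimated at 0, 21.1, 0 and 31.4 in the CD36_KO lanes and at 19.8, 16.6, 42.0 and 29.0 in the WT lanes. Of the sum of both, Irf4-201 took 71.6% in CD36_KO and 24.5% in WT. The lanes of 1 library, however, differed widely, with Irf4-202 at 0 to 31.4 counts in CD36_KO and Irf4-201 at 0 to 15.0 in WT. Only 30 of 4734 words of 31 bases in Irf4-201 and 27 of 4731 in Irf4-202 occur in no other transcript. The division between them is therefore far less certain than the gene total.

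Siglech-206 and Siglech-203 share a long last exon, chr7:55772502-55773476, and differ in exon 2 of Siglech-206, 279 coding bases at chr7:55768887-55769165 that Siglech-203 skips. The lines show the end of exon 1 in lower case and the start of the next exon in capitals.
Siglech-203: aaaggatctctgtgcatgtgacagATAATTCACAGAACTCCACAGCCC
Siglech-206: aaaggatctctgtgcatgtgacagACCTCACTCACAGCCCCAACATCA
Siglech-203 was estimated at 8.6, 3.2, 13.1 and 6.0 counts in the CD36_KO lanes and at 0.00320 counts over all WT lanes. Siglech-206 was estimated at 3.07 counts over all CD36_KO lanes and at 12, 11.6, 14.5 and 8.9 in the WT lanes. The lanes of each transcript did not overlap between libraries, whereas their sum was 34.0 counts in CD36_KO and 47.0 in WT. Neither transcript holds a word of 31 bases that no other transcript has, so their estimates rest on how the counting divided shared reads. Another coding form, Siglech-202, had 47.4 counts in CD36_KO and 36.3 in WT.

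**Figure D3:**
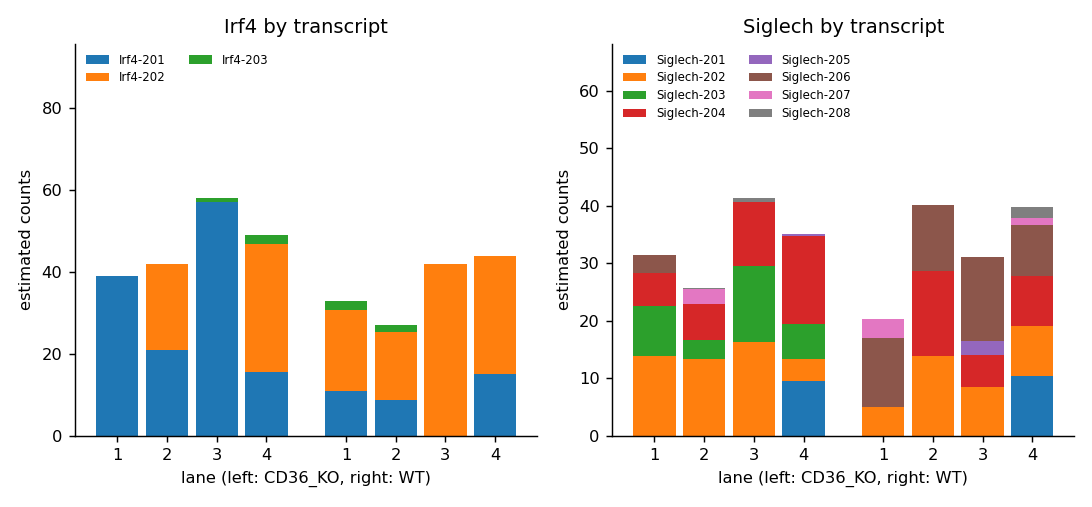
Estimated counts of each annotated transcript of Irf4 (left panel) and Siglech (right panel), stacked per lane, with CD36_KO lanes left of WT lanes. Siglech-203 (green) appears in CD36_KO lanes and Siglech-206 (brown) mainly in WT lanes, while the Irf4 division between Irf4-201 and Irf4-202 varies among lanes of 1 library.

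Wider lists of dendritic cell genes were also close to the middle of the transcriptome. Over 5 lists with 74 genes, the 9 included, 59 were measured, of which 4 were higher, 8 lower and 47 between in CD36_KO, at a median of -0.01. Among all measured genes 6.5% were called higher and 10.8% lower, and these shares stand beside the counts of each list. Without the 9 genes, 51 measured genes gave 4 higher, 7 lower and 40 between. No gene of these lists was at 0 counts except Clec4a4, with 5 counts in CD36_KO and 0 in WT. The number lower was 5 without WT lane 3, 4 with total counts alone and 1 with TPM + 1. The number higher was 8 with TPM + 1, where 12.3% of all measured genes were higher and 2.7% lower.

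In the cDC lineage list, 1 of 12 measured genes was higher, 1 lower and 10 between (median 0.14). Btla, an inhibitory receptor also of T and B cells, had 303 counts in CD36_KO and 101 in WT (1.35), and Nfil3, a transcription factor needed for cDC1, 171 and 299 (-1.04). Itgax, which encodes CD11c, had the highest TPM of the list in CD36_KO, with 44.7 TPM there and 22.3 TPM in WT, where Id2 (25.7 TPM) and Spi1 (24.9 TPM) were higher. Its log2 ratio of CPM was 0.26. Bcl11a, a factor of pDC and B cell development, stood at 0.83, and the myeloid factor Spi1 at -0.01.

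The cDC1 list had 1 of 11 measured genes higher, 2 lower and 8 between (median -0.06). Itgae, the CD103 integrin of both cDC1 and tissue-resident CD8 T cells, had 427 counts in CD36_KO and 97 in WT (1.90). The adhesion gene Cadm1 (237 and 489, -1.28) and the RNA sensor gene Tlr3 (74 and 128, -1.03) were lower. Cd24a, a surface glycoprotein gene, had 23.5 TPM in CD36_KO and 28.9 TPM in WT (log2 ratio of CPM -0.84), the highest level of the list in WT but below Wdfy4 (26.9 TPM) and Naaa (26.3 TPM) in CD36_KO. Wdfy4, needed for cross-presentation, had 1790 and 1506 counts (0.01), and Xcr1, the chemokine receptor restricted to cDC1, had 29 and 31 counts, below 5 CPM.

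The cDC2 list had 0 of 11 measured genes higher, 2 lower and 9 between (median -0.28). The macrophage galactose lectin gene Clec10a had 57 counts in CD36_KO and 119 in WT (-1.30), and Tmem176b 383 and 687 (-1.08). Its neighbour Tmem176a stood at -0.74 and the adhesion gene Esam at -0.54. Sirpa, the receptor for CD47 and the most abundant of them, had 83.1 TPM in CD36_KO and 59.7 TPM in WT, with a log2 ratio of -0.19.

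The pDC list had the highest median of the dendritic lists, 0.54, which is 0.67 above that of all measured genes. It had 1 of 11 measured genes higher, 0 lower and 10 between, and 8 of the 11 stood above the all-gene median. Ccr9, a homing receptor shared with T cells, had 430 counts in CD36_KO and 140 in WT (1.38). Atp1b1 (0.99), Spib (0.75), which is also a B cell factor, and Bst2 (-0.71) were the next in size. Tcf4, the factor that specifies pDC, stood at 0.04. Ctsl, a lysosomal protease gene and the most abundant member, had 75.5 TPM in CD36_KO and 90.4 TPM in WT (-0.43).

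The mature dendritic cell list, to which Fscn1 belongs, moved in both directions, with 1 of 14 measured genes higher, 3 lower and 10 between (median -0.19). Ccr7, which is also the homing receptor of naive T cells, had 1038 counts in CD36_KO and 311 in WT (1.5). Beside Fscn1, the calcium channel subunit gene Cacnb3 (57 and 115, -1.25) and Marcksl1 (109 and 194, -1.07) were lower. The interval excluded 0 for 8 of the 14 genes, against 65.6% of all measured genes. Among these 8, Cd80 (-0.86) and Cd200 (-0.52) were lower and Cd86 (0.48) and Samsn1 (0.51) higher, all short of 2-fold. The chemokine gene Ccl22, the costimulatory receptor gene Cd40 and Socs2 had ratios of -0.30, -0.08 and 0.02, each with an interval that included 0. Fscn1 and Ccr7, both marks of mature dendritic cells, thus lay at opposite ends of the list.

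Beside these lists, lymphocyte genes were higher. The T cell list had 11 of 12 measured genes higher and 0 lower (median 1.77), with Cd4 between at 0.25 and a summed level of 657 to 735 TPM over CD36_KO lanes and 136 to 150 TPM over WT lanes. All 8 measured B cell genes were higher (median 2.5), at a sum of 103 to 106 TPM in CD36_KO and 18.5 to 20.8 TPM in WT, and so were all 4 measured NK cell genes (median 1.54), at 50.1 to 56.5 and 7.45 to 9.61 TPM. No marker of these lists was at 0 counts. Itgae, Ccr7, Ccr9 and Btla, the 4 higher genes of the dendritic lists, are each known in T cells, B cells or both, and the part of lymphocyte RNA in their values was not tested.

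The monocyte and macrophage list stood nearer to the dendritic genes, with 2 of 17 genes higher, 4 lower and 11 between (median -0.33). Cx3cr1 (2.04), known also from effector T cells, and Ly6c2 (1.22) were the higher ones, and Cd14 (-1.31), Adgre1 (-1.26) and Itgam (-1.19) were among the lower ones. Its summed level was 2321 to 2375 TPM over CD36_KO lanes and 1974 to 2095 TPM over WT lanes, far above the sum of the 9 identity genes, and no member was at 0. This sum was higher in CD36_KO although the list median was negative, and TPM carries the common shift given above.

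**Figure D4:**
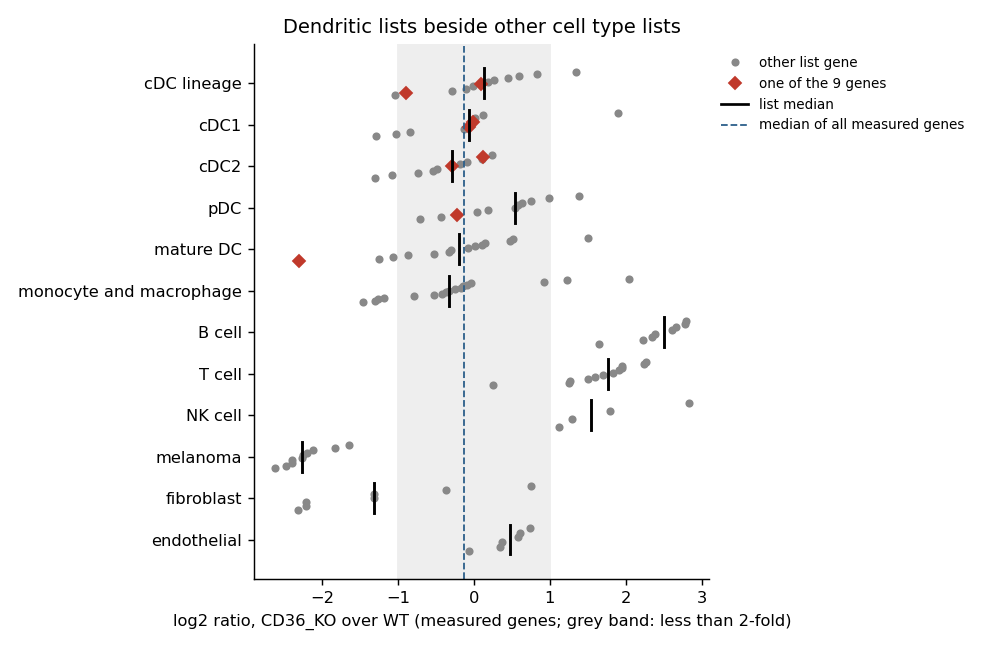
Log2 ratio of CD36_KO over WT for each measured gene of 12 cell type lists, with red diamonds for the 8 measured identity genes, black bars at list medians and a dashed line at the median of all measured genes (-0.13). The medians of the dendritic lists lie between -0.28 and 0.54, those of the B, T and NK cell lists further right and those of the melanoma and fibroblast lists further left.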

How the data were processed

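Each of the 8 deposited tables holds 1 sequencing lane. The submitters' processing notes name kallisto, DESeq2 and the build GRCm38.p6, without roles or tool versions. The authors deposited estimated counts per transcript, which are not normalised and need not be whole, and TPM, scaled by kallisto for effective length and lane total. Library preparation is given as total RNA with standard Illumina protocols, and strand is not stated. Of the 9 genes Flt3 alone overlaps a gene on the opposite strand, Gm26597, with 1 count per library.

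Estimated counts of 142351 transcripts were summed over genes and lanes and rounded. TMM factors (edgeR 4.0.16, R 4.3.3) were 1.071 for CD36_KO and 0.934 for WT. Ratios are of TMM-scaled CPM with exact Clopper-Pearson 95% intervals. No p-value is given, since the lanes repeat the sequencing and not the animals. Gene positions came from GENCODE M21 (GRCm38), which holds 98.6% of the deposited gene identifiers with their version. The annotation release used by the authors is not stated. Promoters are from RefSeq (GRCm38.p6).

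The 9 genes and the 19 lists were chosen with earlier results of these data known. From each list, up to 4 measured genes with the largest absolute ratio and the most abundant were to be named, plus family members; genes named beyond this for their role were chosen after their values were seen, and lists of other cell types are given in less detail. The interval and the calling rule were tested on simulated counts that varied by counting error alone. That simulation was scaled by library totals, so it tested neither TMM scaling nor variation between lanes or animals. Alternatives were DESeq2 1.42.0 size factors, total counts, TPM with an added 1 or 0.1, no filter, 20 CPM, coding transcripts only, and each lane left out. Values of some list genes are not reported here.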

Additional observations from a re-analysis of the deposited data

Results flagged for a closer look

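Over the 18 sets of 4 lanes (9 genes in 2 libraries) 1 held a lane that stood apart by Dixon's criterion, which chance alone gives in about 1 of 20 sets. It was WT lane 3 for Batf3, at 0.423 CPM (1 count), where the other WT lanes held 5 counts each. Batf3 was below 5 CPM in both libraries, so the lane touches no call.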

How the results depend on the processing

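Fscn1 was the 1 called member, and no member was called higher, under every alternative run; without 1 lane its log2 ratio was -2.33 to -2.18. Leaving out 1 lane gave a member median of -0.19 to -0.02, a dendritic list median of -0.036 to 0.065, 5 to 8 list genes lower and 4 to 5 higher. The member median was 0.057 with total counts, 0.19 with TPM + 1, 0.23 with TPM + 0.1, 0.030 with coding transcripts and -1.16 at 20 CPM, where only Irf8 and Fscn1 remain. The median of all measured genes moved with it, to 0.07, 0.37 and 0.44 with the first 3 of these scales, so relative to it the member median was -0.01, -0.18 and -0.21. Signs of Irf8, Clec9a, Cd209a, Siglech and Batf3 turned under at least 1 alternative. The dendritic list median was 0.19 with total counts, 0.41 and 0.48 with TPM + 1 and + 0.1, 0.10 with coding transcripts and -0.063 without a filter. Its genes lower were 4 with total counts, at 20 CPM and with coding transcripts and 1 on both TPM scales, and its genes higher 8 and 15 on the TPM scales, whose calls use no interval. All measured genes split into 1501 higher and 329 lower with TPM + 1, 1114 and 940 with total counts, and 792 and 1314 with TMM. The cause of these moves was not tested beyond the common shift. Of 765 other values 670 stayed within their interval or 1.5 times the main count, and 0 of those called at least 2-fold changed sign. Depth limits the low genes: by counting error Clec9a in CD36_KO lay anywhere from 67.0% to 137% of WT. No paired analysis was possible because the lanes of 1 library give no test between genotypes.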
